A study of Mus musculus with 6 samples.

Results

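Microglia of mice that stayed helpless through weeks of retesting were compared with microglia of mice that were helpless 1 day after the shocks. The cells are those that the authors' deposited cell labels call microglia in the chronic non-recovered library (98 cells, 286827 UMIs, batch 3) and in the acute helpless library (630 cells, 2711534 UMIs, batch 1). They are 728 of the 3005 cells in the series. One barcode labelled as a microglial cell in the chronic non-recovered library was left out, because 6136 of its 17107 UMIs lay in 5 neutrophil genes, S100a8, S100a9, Ngp, Camp and Retnlg. A UMI is a tag that marks 1 captured RNA molecule, and levels are given as CPM, the UMIs of a gene per 1000000 UMIs summed over the microglia of a library.

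The cells were live CD45-positive cells sorted from the hippocampus of mice whose strain the labels give as BC57BL/6, and libraries were made with a droplet kit that reads the 5' end of transcripts. In the acute learned helplessness paradigm, mice received 180 inescapable foot shocks of 0.3 mA and were tested the next day in 30 trials of 24 s in which escape was possible. In the chronic paradigm the same procedure was followed by weekly retests for 3 weeks. The acute helpless library came from mice that failed to escape in the acute test, and the chronic non-recovered library from mice of the chronic paradigm that the labels call non recovered. Both groups had been shocked, and the sources used here do not state how many mice each library holds. Each group had 1 library and the batches differed, so there is no replicate, no test was made, and group and batch cannot be told apart. Intervals are exact at 95%: those of levels and ratios reflect the counting of UMIs, those of shares of cells the counting of cells as if independent, and none reflects differences between mice. Levels are set beside the other libraries: acute non-helpless (batch 2), chronic non-helpless and chronic recovered (batch 3), and non-shocked cells of batch 2 and batch 3, which makes 7 sets of cells.

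Microglia are the resident macrophages of the brain. They depend on signalling through the receptor Csf1r and on TGF-beta, survey the tissue with purinergic receptors, and tag and engulf material with complement. Glucocorticoids released under stress act on them through the glucocorticoid receptor, which switches on genes such as Fkbp5, Ddit4 and Tsc22d3. Immediate early genes such as Fos and Egr1 are transcribed within minutes of a stimulus.

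The microglial label held in both libraries. All 12 microglial markers were detected in each, and together they took 46875 CPM in the chronic non-recovered and 49198 CPM in the acute helpless cells. Markers of neurons and of red blood cells had 0 UMIs in both. Neutrophil markers had 40 UMIs (139 CPM) in 24 of the 98 chronic non-recovered cells, with Retnlg at 0, and 0 UMIs in the acute helpless cells. B cell markers were at 31.4 CPM in the chronic non-recovered and 90.4 CPM in the acute helpless cells, with Cd79a and Ms4a1 at 0 in the former. Oligodendrocyte markers were at 76.7 and 47.9 CPM, with Mog and Cldn11 at 0 in both. Markers of T cells, NK cells, monocytes, other brain macrophages, endothelium, astrocytes and choroid plexus were at 34.9 CPM or less in both. The part of these other cells' RNA in the results was not tested. No cell barcode was shared by the 2 libraries. The deposited clusters divided the cells differently: the chronic non-recovered cells lay in cluster 1 (41 cells) and cluster 6 (57 cells), and the acute helpless cells in clusters 1 (291), 2 (226), 3 (112) and 4 (1).

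More than 1 in 2 chronic non-recovered microglia held very little ribosomal protein mRNA. Ribosomal protein genes are among the most transcribed genes of a cell, and their share of UMIs split the cells of both libraries into a low and a high range. Cells with under 2.5% of their UMIs in 85 ribosomal protein genes numbered 53 of 98 (54.1%, 43.7 to 64.2) in the chronic non-recovered and 100 of 630 (15.9%, 13.1 to 19.0) in the acute helpless library. Only 3 cells of each library lay between 2% and 3%. With every cell thinned to 1000 UMIs, which left out 11 chronic non-recovered cells and no acute helpless cell, the shares were 51.7% (40.8 to 62.6) and 15.9%. The share was 34.3% in non-shocked cells of batch 3, 15.7% in chronic non-helpless, 9.41% in chronic recovered, 9.31% in acute non-helpless and 65.9% in the shallow non-shocked cells of batch 2. The chronic non-recovered library thus stood above the 3 other sets of its batch. The low range is a range of a score and no cell type, and its cells were shallower: their median was 1878 UMIs against 4363 in the other chronic non-recovered cells, and 1483.5 against 4463.5 in the acute helpless library. Results are therefore also given for the cells with at least 2.5% ribosomal UMIs (45 chronic non-recovered and 530 acute helpless cells).

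**Figure D1:**
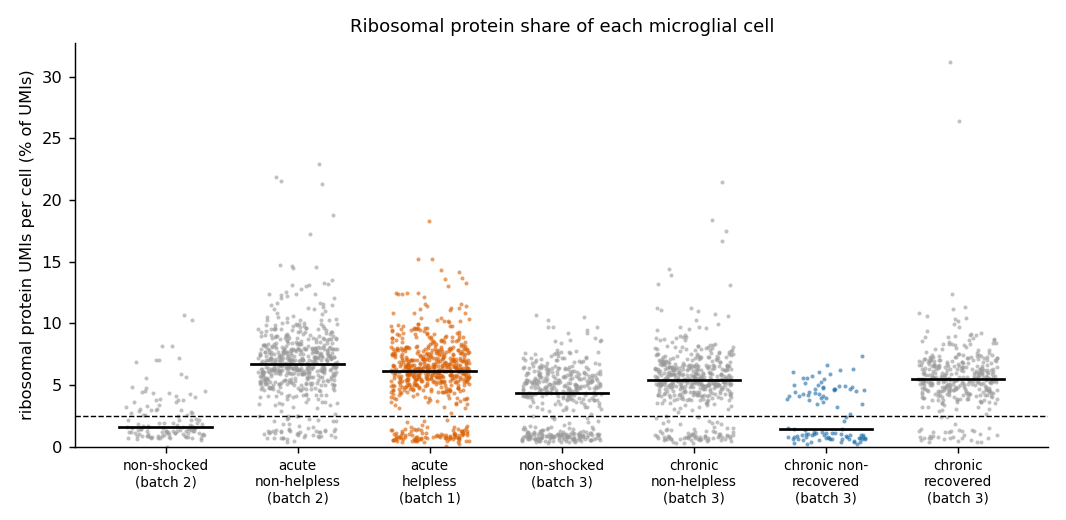
Share of UMIs in ribosomal protein genes (vertical axis, % of UMIs) of each microglial cell (points) in the 7 sets of cells, with the median as a black bar and 2.5% as a dashed line. The chronic non-recovered cells (blue) split into 53 cells below and 45 cells above the line, while 530 of the 630 acute helpless cells (orange) lie above it.

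Across 2223 measured genes, which reached 100 CPM and 30 UMIs in whichever library had more, 339 (15.2%) were at least 2-fold higher and 116 (5.22%) at least 2-fold lower in chronic non-recovered microglia. The median gene differed 1.49-fold in either direction. Among cells with at least 2.5% ribosomal UMIs, 1551 genes were measured, of which 96 (6.19%) were higher and 55 (3.55%) lower. Among the cells below that share, 854 genes were measured, of which 29 (3.40%) were higher and 64 (7.49%) lower. The median log2 ratio of all measured genes was -0.12 in the former cells and -0.18 in the latter. The balance of the 2 directions depended on the scaling: with median-of-ratios size factors, which lower the median log2 ratio of the measured genes from 0.094 to -0.31, 141 genes were higher and 345 lower. With each cell thinned to 1000 UMIs, where the median was -0.44, 55 genes were higher and 257 lower. With each cell weighted equally the numbers were 309 and 227, and in cluster 1 alone 90 and 53. Of the 339 higher genes 127 were also measured among cells with at least 2.5% ribosomal UMIs, and 88 of these were at least 2-fold higher there. Of the 116 lower genes 115 were measured and 43 called there. Of the 339 higher genes, 309 were also above the 3 other batch 3 sets in the chronic non-recovered cells, against 44.6% of all measured genes, and 239 had their lowest level of the 7 sets in the acute helpless cells, against 24.3%. These shares are a description, since the genes were picked by the same 2 libraries.

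Several immediate early genes were higher in chronic non-recovered than in acute helpless microglia. Of 12 measured members of a list of 23, 4 were at least 2-fold higher (Egr1, Fos, Ier2 and Jun) and none was lower, beside 15.2% of all measured genes higher, and the median log2 ratio of the list was 0.77. Egr1, a zinc finger transcription factor, stood at 34.4 CPM in non-shocked batch 2, 98.4 in acute non-helpless, 94.8 in acute helpless, 529 in non-shocked batch 3, 116 in chronic non-helpless, 373 in chronic non-recovered and 110 in chronic recovered cells. It was 3.94-fold higher (3.11 to 4.95) in chronic non-recovered than in acute helpless cells, but below the non-shocked cells of the same batch. Fos, a subunit of the AP-1 transcription factor, had in the same order 68.8, 362, 104, 407, 436, 307 and 398 CPM, a 2.94-fold difference (2.29 to 3.75). The chronic non-recovered library lay under the 3 other sets of batch 3, and the acute helpless library was the second lowest of the 7. Ier2, a short-lived nuclear regulator, followed the same order at 51.6, 163, 62.7, 237, 164, 160 and 211 CPM, 2.56-fold higher (1.81 to 3.56). Jun, the partner of Fos in AP-1, lay at the 2-fold line, with 1415 CPM against 706 (2.00-fold, 1.80 to 2.23). Among the other members the mRNA decay factor Zfp36 (1353 against 782 CPM), Dusp1, a phosphatase that ends MAP kinase signals (122 against 68.6), and Junb (868 against 582) were between 1.49-fold and 1.78-fold higher.

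Egr1 and Fos were less than 2-fold higher in the ribosome-poor cells and passed 2-fold in the cells with more ribosomal mRNA. There Egr1 was 4.44-fold (3.36 to 5.80), Ier2 3.37-fold (2.31 to 4.82) and Fos 3.00-fold (2.17 to 4.08) higher. These were the 3 called of 10 measured members there, beside 6.19% of all genes measured in those cells. Of 8 members measured in the ribosome-poor cells, 0 were at least 2-fold higher and 1 was lower, beside 3.40% and 7.49%. Without the 1 chronic non-recovered cell with the most Egr1 UMIs, the log2 ratio of Egr1 was 1.64 in place of 1.98. In the ribosome-poor cells the log2 ratios were 0.68 for Egr1, 0.18 for Fos and -0.27 for Ier2, the last from 7 and 14 UMIs. At 1000 UMIs per cell, Egr1 was found in 17 of 87 chronic non-recovered microglia (19.5%, 11.8 to 29.4) and in 46 of 630 acute helpless microglia (7.30%, 5.39 to 9.62). Unthinned, these were 29 of 98 and 139 of 630 cells, at median depths of 2491.5 and 4161 UMIs. In T, NK and B cells of the same libraries, thinned alike, it was found in 0 of 18 and 0 of 41 cells, and unthinned in 2 of 19 and 5 of 41 cells at median depths of 4718 and 7085 UMIs.

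The promoter-proximal sequence of members of this group and of the heat shock gene Hspa1a is shown because Fos, Jun and Hspa1a were all at least 2-fold higher and have known control elements. Each run is the 250 bases upstream of the RefSeq start, 5' to 3' on the gene's strand in build GRCm38.p6. Fos lies on chr12:85473640-85473889 (plus strand), Jun on chr4:95052223-95052472 and Hspa1a on chr17:34972157-34972406 (both minus strand). Capitals mark TGACG, the first 5 bases of the cyclic AMP response element, in Fos, TGANNTCA, a palindrome that AP-1 and related factors bind, in Jun, and GAANNTTC, the core of the heat shock element, in Hspa1a.
Fos: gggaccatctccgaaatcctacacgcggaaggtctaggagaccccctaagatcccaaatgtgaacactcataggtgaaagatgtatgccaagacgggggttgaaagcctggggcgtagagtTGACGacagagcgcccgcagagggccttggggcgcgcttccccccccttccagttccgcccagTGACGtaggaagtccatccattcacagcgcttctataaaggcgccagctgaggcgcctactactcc
Jun: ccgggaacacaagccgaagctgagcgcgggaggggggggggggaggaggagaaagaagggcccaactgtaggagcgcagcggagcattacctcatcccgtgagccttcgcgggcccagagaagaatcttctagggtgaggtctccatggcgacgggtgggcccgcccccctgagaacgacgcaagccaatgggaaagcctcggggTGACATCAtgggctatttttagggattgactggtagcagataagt
Hspa1a: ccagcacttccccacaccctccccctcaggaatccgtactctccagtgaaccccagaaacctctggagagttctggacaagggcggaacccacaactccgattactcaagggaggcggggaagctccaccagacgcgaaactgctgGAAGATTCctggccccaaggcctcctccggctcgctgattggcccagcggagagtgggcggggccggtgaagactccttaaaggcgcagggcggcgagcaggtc
Searched on both strands, TGACG occurred 2 times in the Fos window, TGANNTCA 1 time in the Jun window and GAANNTTC 1 time in the Hspa1a window. GAANNTTC also occurred 1 time in the Jun window, where it is not capitalised. Of 32851 RefSeq promoter windows of the same length, 17.8% held TGACG, 11.9% TGANNTCA and 6.69% GAANNTTC, so each motif is common and a match describes the letters only.

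Hspa1a, the inducible HSP70 chaperone, was 4.13-fold higher (2.74 to 6.11) in chronic non-recovered microglia, from 38 and 87 UMIs. Its levels were 0 CPM in non-shocked batch 2, 284 in acute non-helpless, 32.1 in acute helpless, 24.1 in non-shocked batch 3, 178 in chronic non-helpless, 132 in chronic non-recovered and 195 in chronic recovered cells. The acute helpless and non-shocked sets were low and the 4 other sets high. It was the only 1 of 11 measured chaperones at least 2-fold apart, beside 15.2% of all measured genes higher, and the list median of 0.094 was that of all measured genes. The constitutive chaperones Hspa8 (1325 against 1400 CPM) and Hsp90ab1 (913 against 1071 CPM) were 1.06-fold and 1.17-fold lower.

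Among 5 measured chemokines and cytokines, Ccl3 and Ccl4 were at least 2-fold higher in chronic non-recovered microglia, beside 15.2% of all measured genes. The other 3 measured members were within 1.35-fold. Ccl4, a chemokine that attracts monocytes and T cells, stood in the same order of 7 sets at 22.9, 143, 35.04, 75.3, 127, 265 and 118 CPM and was 7.56-fold higher (5.52 to 10.3). Ccl3, its neighbour on the chromosome, stood at 17.2, 59.5, 19.2, 43.0, 67.9, 129 and 42.3 CPM, 6.73-fold higher (4.29 to 10.5). Both genes had their highest level of the 7 sets in the chronic non-recovered cells. Very few cells carried them: all 76 Ccl4 UMIs lay in 5 of the 98 cells, and 36 of the 37 Ccl3 UMIs in 5 cells. Without the 1 cell that held the most UMIs of the gene, the log2 ratio was 1.56 in place of 2.92 for Ccl4 and 1.28 in place of 2.75 for Ccl3. At 1000 UMIs per cell, 4 of 87 chronic non-recovered (4.60%) and 9 of 630 acute helpless microglia (1.43%) held a Ccl4 UMI, and unthinned 5 of 98 and 13 of 630. Among T, NK and B cells, which also make Ccl4, 1 of 18 and 2 of 41 held one, and unthinned 6 of 19 and 3 of 41. In the ribosome-poor microglia the direction turned, with log2 ratios of -1.05 for Ccl4 (12 against 41 UMIs) and -0.50 for Ccl3 (2 against 7 UMIs). In the other cells Ccl4 was 15.98-fold (10.95 to 23.4) and Ccl3 10.5-fold (6.55 to 16.7) higher. These folds also rest on very few cells, which the intervals do not reflect. They were not recomputed without the cell that held the most UMIs. On GRCm38.p6 the annotated genes, Ccl3 at chr11:83647843-83649378 and Ccl4 at chr11:83648624-83664683, overlap, so reads of the 2 may not be fully separated. Ccl9 (108 CPM in both), Ccl6 (153 against 207 CPM) and Tgfb1 (715 against 664 CPM) were near equal.

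In all cells together, Ddit4 stood apart from the rest of the glucocorticoid-induced genes. Of 11 measured members of a list of 28, Ddit4 was at least 2-fold lower in chronic non-recovered microglia, beside 5.22% of all measured genes, and none was higher, beside 15.2%. The list median was -0.31. Among cells with at least 2.5% ribosomal UMIs, 2 of 10 measured members were at least 2-fold lower, beside 3.55% of all genes measured there. Among the ribosome-poor cells 3 of 9 were, beside 7.49%. Ddit4, a stress-induced inhibitor of mTORC1, stood at 68.8 CPM in non-shocked batch 2, 323 in acute non-helpless, 1168 in acute helpless, 23.5 in non-shocked batch 3, 136 in chronic non-helpless, 293 in chronic non-recovered and 156 in chronic recovered cells. It was 3.99-fold lower (3.21 to 5.01) in the chronic than in the acute helpless state, 3.60-fold (2.81 to 4.70) among cells with more ribosomal mRNA. Each helpless library was nevertheless the highest of its paradigm. Thinned to 1000 UMIs, 25 of 87 chronic non-recovered microglia (28.7%, 19.5 to 39.4) and 377 of 630 acute helpless microglia (59.8%, 55.9 to 63.7) held a Ddit4 UMI, and unthinned 39 of 98 and 533 of 630. Lymphocytes also transcribe this gene, and thinned alike 2 of 18 and 27 of 41 of the T, NK and B cells held one. Unthinned, these were 13 of 19 and 37 of 41 cells, at median depths of 4718 and 7085 UMIs.

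Fkbp5, the co-chaperone that holds the glucocorticoid receptor inactive, was less than 2-fold apart in the 2 helpless libraries. In the same order of sets it stood at 74.5, 32.6, 270, 44.7, 27.5, 188 and 19.1 CPM, so that acute helpless and chronic non-recovered cells were the highest of the 7 and differed 1.43-fold (1.09 to 1.93), the chronic library being lower. Among cells with more ribosomal mRNA it was 1.88-fold lower (1.26 to 2.92). Tsc22d3, a leucine zipper protein that mediates anti-inflammatory effects of glucocorticoids, stood at 86.0, 304, 426, 44.7, 183, 349 and 169 CPM and was 1.22-fold lower (0.996 to 1.52) in the chronic state. Again the 2 helpless libraries were the highest. Per1, a clock gene with a glucocorticoid response element, was 2.44-fold higher (1.504 to 3.81; 87.2 against 35.8 CPM), below the level needed to count it as measured. The receptor itself, Nr3c1, had 209 against 160 CPM (1.30-fold, 0.978 to 1.71), and the kinase Sgk1 had 1011 against 728 CPM (1.39-fold, 1.22 to 1.57). Of 7 measured genes of the receptor and its cochaperones none was 2-fold apart.

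**Figure D2:**
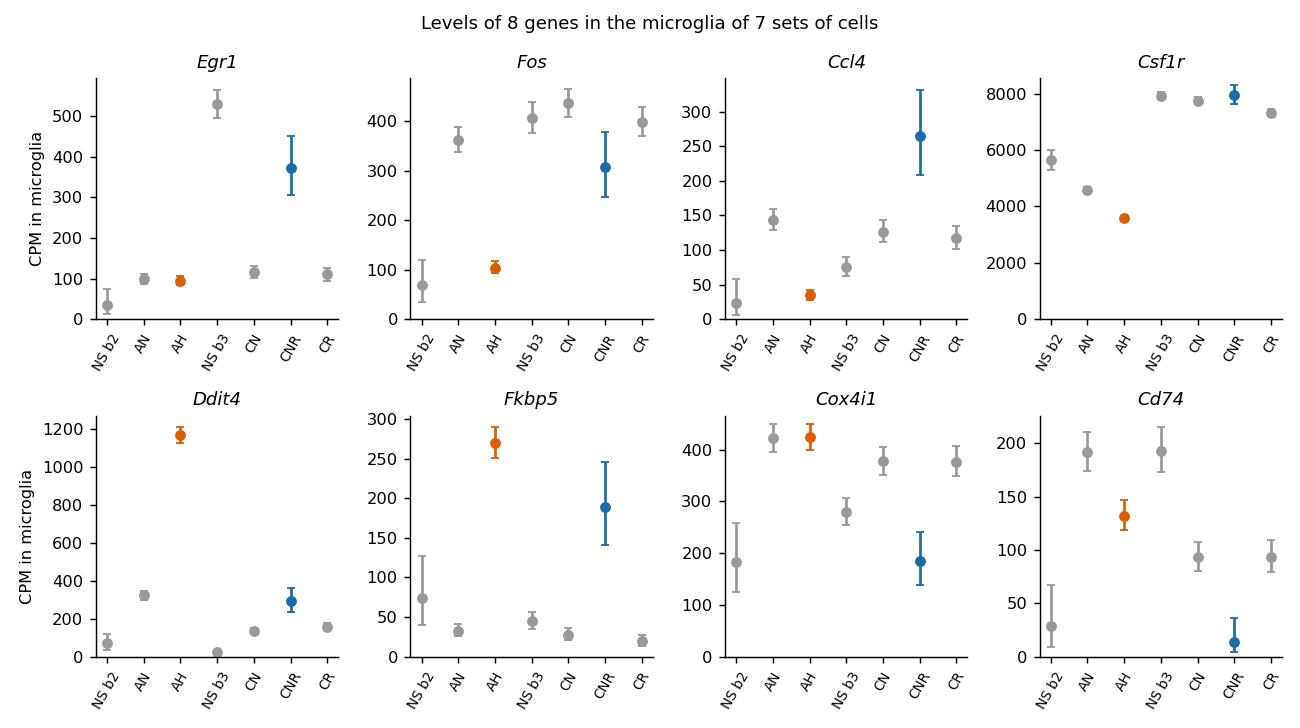
CPM (vertical axis, from 0) of 8 genes in the microglia of 7 sets of cells: non-shocked batch 2 (NS b2), acute non-helpless (AN), acute helpless (AH, orange), non-shocked batch 3 (NS b3), chronic non-helpless (CN), chronic non-recovered (CNR, blue) and chronic recovered (CR). Points are summed levels and bars exact 95% Poisson intervals; Ddit4 reaches 1168 CPM in the acute helpless and 293 in the chronic non-recovered cells, while Fkbp5 is at 270 and 188.

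Identity genes of microglia were well detected in both libraries, with Csf1r higher in the chronic one. Csf1r, the receptor for the survival factors CSF1 and IL-34, stood at 5641, 4596, 3579, 7924, 7747, 7963 and 7320 CPM in the 7 sets and was 2.23-fold higher (2.12 to 2.33) in chronic non-recovered than in acute helpless cells. All 4 sets of batch 3 lay above the 3 sets of the earlier batches, and the chronic non-helpless library was 1.69-fold above the acute non-helpless one. It was the only 1 of 21 measured homeostatic surface and secreted genes at least 2-fold apart, beside 15.2% of all measured genes higher and 5.22% lower. Their median was -0.24. The purinergic receptor P2ry12 (5913 against 6351 CPM) was 1.07-fold lower, Tmem119 (2636 against 3663) 1.39-fold and the protease inhibitor Cst3 (36517 against 61398) 1.68-fold lower. Among 9 transcription factors of microglial identity, Runx1 (370 against 174 CPM, 2.12-fold, 1.70 to 2.62) and Egr1 were at least 2-fold higher, beside 15.2% of all measured genes. Sall1, which keeps microglia from other macrophage fates, had 296 against 164 CPM (1.81-fold, 1.41 to 2.28). Irf8 had 561 against 549.5 CPM (1.02-fold, 0.863 to 1.20), and Spi1, the master factor PU.1, was 1.45-fold lower (1.21 to 1.73). In cells with at least 2.5% ribosomal UMIs Runx1 was 1.48-fold (1.04 to 2.05) and Csf1r 1.97-fold (1.86 to 2.09) higher. The median of the identity transcription factors was 0.37 in all cells, beside 0.094 for all measured genes. In cells with at least 2.5% ribosomal UMIs it was 0.41 over 9 factors, beside -0.12. In the ribosome-poor cells it was 0.10 over 8, beside -0.18.

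TGF-beta signalling genes had a median log2 ratio of 0.71 over 10 measured members, of which Ski alone was at least 2-fold higher, beside 15.2% of all measured genes, and none 2-fold lower. Ski, a repressor of SMAD transcription factors, had 153 against 71.2 CPM (2.16-fold, 1.52 to 3.00). The receptor chains Tgfbr2 (596 against 310 CPM, 1.92-fold) and Tgfbr1 (1482 against 1125 CPM, 1.32-fold) and the inhibitor Smad7 (237 against 140 CPM, 1.70-fold) were also higher. In cells with more ribosomal mRNA the list median was 0.17 over 7 genes.

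Complement, phagocytic and antigen-presenting transcripts were mostly lower in chronic non-recovered microglia. C1qa, which with C1qb and C1qc forms the recognition protein of the classical pathway, had 6544 against 11192 CPM, 1.71-fold lower (1.63 to 1.79). C1qb was 1.67-fold (1.59 to 1.75) and C1qc 1.59-fold (1.52 to 1.67) lower. All 16 measured members of the disease-associated microglia list, genes that rise around amyloid plaques, were lower and none by 2-fold, with a median of -0.64. They included Tyrobp, the signalling adaptor of Trem2 (1527 against 2895 CPM, 1.90-fold), Apoe (307 against 517 CPM, 1.69-fold, 1.36 to 2.11) and Trem2 itself (1796 against 2465 CPM, 1.37-fold). The 27 measured genes of lysosomes and phagocytosis had a median of -0.29, none 2-fold apart, with the cathepsin Ctsl 1.67-fold lower and Ctsd 1.29-fold lower. Among cells with at least 2.5% ribosomal UMIs these medians were -0.20 for complement and Fc receptors, -0.29 for the disease-associated list and -0.22 for lysosome and phagocytosis. They stood beside a median of -0.12 for all genes measured in those cells, against 0.094 in all cells. In the ribosome-poor cells the 3 medians were, in the same order, -0.79, -0.80 and -0.44, beside -0.18 for all genes measured there. At least 2-fold lower there were 2 of 9, 5 of 14 and 1 of 25 measured members, beside 7.49% of all genes, and none was 2-fold higher.

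Cd74, the invariant chain that guides MHC class II molecules, had 4 UMIs (13.9 CPM) in chronic non-recovered and 358 UMIs (132 CPM) in acute helpless cells, 9.47-fold lower (3.67 to 34.9). Its levels in the other sets were 28.7 in non-shocked batch 2, 191 in acute non-helpless, 193 in non-shocked batch 3, 93.0 in chronic non-helpless and 93.2 CPM in chronic recovered cells. The chronic non-recovered library was the lowest of the 7. H2-Aa and H2-Eb1, chains of the class II molecules, had 0 UMIs there, where 3 counts correspond to 10.5 CPM. In the acute helpless cells they stood at 32.1 and 27.3 CPM. The Cd74 ratio rests on 1 cell: 274 of the 358 UMIs in the acute helpless library lay in a single cell, and without it the log2 ratio was -1.16 in place of -3.24. Of 13 measured class I genes, H2-T23, a nonclassical class I molecule, was 2.09-fold higher (174 against 83.3 CPM) and the proteasome activator Psme2 2.23-fold lower (73.2 against 163 CPM). Beside these, 15.2% of all measured genes were at least 2-fold higher and 5.22% lower. H2-D1 (299.8 against 499 CPM) and B2m (492 against 766 CPM) were 1.66-fold and 1.56-fold lower, and the class I median was -0.33.

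Transcripts of the respiratory chain and of translation were lower. All 34 measured nuclear-encoded respiratory chain genes were lower in chronic non-recovered microglia, 5 of them by 2-fold or more beside 5.22% of all measured genes, with a median of -0.79. The 5 were Cox7a2 (55.8 against 150 CPM, 2.69-fold, 1.64 to 4.75), Cox6c (73.2 against 188 CPM, 2.57-fold), Atp5e (126 against 310 CPM, 2.47-fold), Cox4i1 (185 against 424 CPM, 2.295-fold, 1.74 to 3.08) and Atp5h (80.2 against 177 CPM, 2.21-fold). They encode subunits of cytochrome c oxidase and of ATP synthase. Cytosolic ribosomal proteins had a median of -0.93, and 27 of 79 were at least 2-fold lower, beside 5.22% of all measured genes. The same genes define the ribosome-poor cells, so this count is not separate from their share. Translation factors had a median of -0.63 over 17 genes, with Eef1b2 2.09-fold lower (157 against 328 CPM), and proliferation genes were measured for H2afz, a histone variant (139 against 333 CPM, 2.39-fold lower), and Tubb5 (241 against 414 CPM, 1.72-fold lower). Among cells with at least 2.5% ribosomal UMIs the respiratory chain median was -0.40 with no gene 2-fold apart, and the translation factor median -0.22. Mitochondrially encoded genes had a median of 0.059, and 2 of 12 were at least 2-fold lower, beside 5.22% of all measured genes: mt-Nd4 (314 against 1182 CPM) and mt-Atp8 (404 against 1432 CPM). The list median was -0.28 in cells with at least 2.5% ribosomal UMIs, with 11 of 12 genes below 0. In the ribosome-poor cells it was -0.49, with 12 of 12 below 0. The medians of all measured genes in these 2 sets of cells were -0.12 and -0.18. In mt-Nd4 and mt-Atp8 all 3 sets of batches 1 and 2 lay above all 4 sets of batch 3.

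Nuclear noncoding RNA and mRNAs of splicing factors were higher in all cells together. Of 16 measured genes for nuclear long noncoding RNA and splicing factors, 4 were at least 2-fold higher, none was lower and the median was 0.61, beside 15.2% of all measured genes higher. In cells with at least 2.5% ribosomal UMIs the median was 0.38 with 2 genes called, and in the ribosome-poor cells it was -0.066. Malat1, a noncoding RNA that stays in nuclear speckles, stood at 34480, 11715, 9763, 14200, 12147, 21710 and 10374 CPM in the 7 sets, 2.22-fold higher (2.16 to 2.29) in chronic non-recovered cells. The 2 sets with the largest share of ribosome-poor cells, non-shocked batch 2 and chronic non-recovered, had the most Malat1. Clk1, a kinase of splicing factors (310 against 110 CPM, 2.82-fold, 2.203 to 3.59), the helicase Ddx5 (1374 against 640 CPM, 2.15-fold, 1.92 to 2.40) and Hnrnpu, a scaffold protein of nuclear RNA (296 against 39.5 CPM, 7.51-fold, 5.58 to 10.1), were the others. In cells with at least 2.5% ribosomal UMIs Malat1 was 1.49-fold (1.43 to 1.56) and Clk1 2.69-fold (1.92 to 3.69) higher.

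The ratio also followed the genomic span of a gene. Spans were known for 2169 of the 2223 measured genes (97.6%), which were divided by span into 5 bins of near equal number. From the shortest bin, up to 6.15 kb, to the longest, over 65.6 kb, the median log2 ratio was -0.55, -0.29, 0.0072, 0.42 and 0.83, and the share of genes at least 2-fold higher went from 3.00% to 37.1%. None of the 434 longest genes was at least 2-fold lower. The first and last medians were -0.33 and 0.47 in cells with at least 2.5% ribosomal UMIs, -0.34 and -0.027 in the ribosome-poor cells, and -0.21 and 0.24 between the chronic and acute non-helpless libraries. Abca1, a cholesterol exporter with a span of 129 kb, had 418 against 195 CPM (2.14-fold higher, 1.74 to 2.61), and was 1.51-fold higher (1.09 to 2.05) in cells with at least 2.5% ribosomal UMIs. What the share of ribosome-poor cells contributes to the pattern was not tested beyond these separate values.

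**Figure D3:**
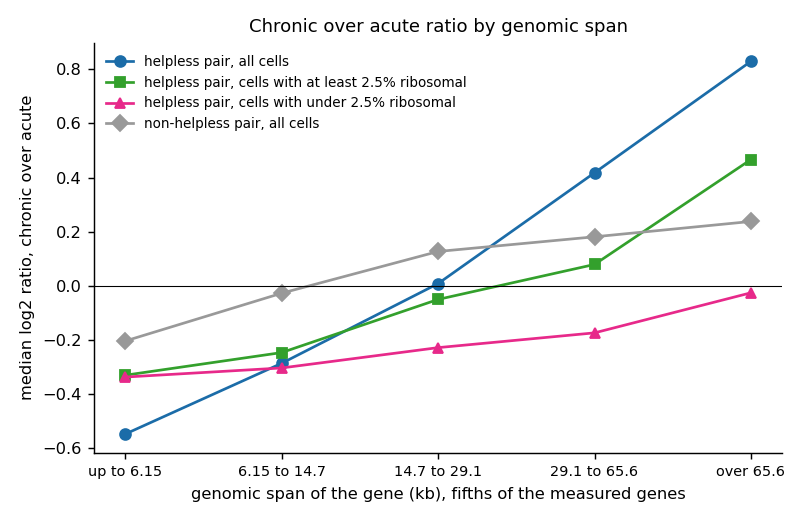
Median log2 ratio of chronic over acute cells (vertical axis) in 5 bins of the measured genes by genomic span (horizontal axis, kb), for the helpless libraries in all cells, in cells with at least 2.5% ribosomal UMIs, in cells below that share, and for the non-helpless libraries. The line for all cells climbs from -0.55 to 0.83 and the line for ribosome-poor cells only from -0.34 to -0.027.

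**Figure D4:**
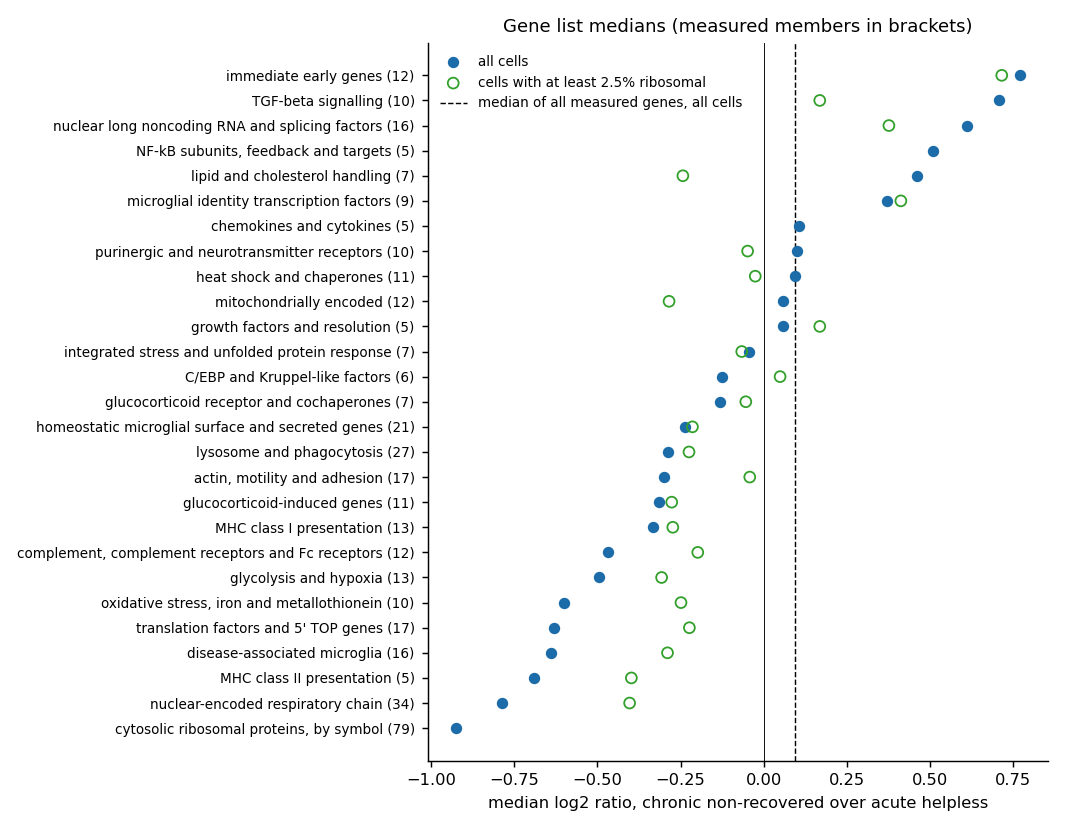
Median log2 ratio of chronic non-recovered over acute helpless microglia (horizontal axis) of each gene list with at least 5 measured members, in all cells (filled) and in cells with at least 2.5% ribosomal UMIs (open, where at least 5 members were measured); the dashed line is the median of all measured genes, 0.094. The dashed line is for all cells, and in cells with at least 2.5% ribosomal UMIs the median of all measured genes was -0.12. Immediate early genes are highest at 0.77 and cytosolic ribosomal proteins lowest at -0.93, and the medians of the respiratory chain, TGF-beta and disease-associated lists lie closer to 0 in the open symbols.

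Of the remaining lists, C/EBP and Kruppel-like factors, NF-kB and purinergic receptor genes held no measured member 2-fold apart in all cells together. The NF-kB median was 0.51 over 5 genes, beside 0.094 for all measured genes. In cells with at least 2.5% ribosomal UMIs it was 0.61 over 4 genes, beside -0.12. Of 7 purinergic receptor genes measured in those cells 1 was at least 2-fold lower, beside 3.55% of all genes there. Cebpd, with 70 UMIs in the chronic non-recovered and 0 in the acute helpless cells, was left out as a symbol found under 1 of the 2 annotations, and Tnfaip3 (87.2 against 17.7 CPM) and Sod2 (10.5 against 44.3 CPM) were below the level needed to count them as measured. Cebpb, a transcription factor of inflammatory and acute phase genes, stood at 80.3, 40.6, 510, 177, 24.7, 307 and 100.2 CPM in the 7 sets and was 1.66-fold lower (1.34 to 2.08) in the chronic non-recovered cells. As with Fkbp5, the 2 helpless libraries had the highest levels. Cebpa, a factor of myeloid identity, had 120, 90.9, 391, 268, 59.3, 422 and 238 CPM (1.08-fold, 0.887 to 1.30), again highest in the 2 helpless libraries. Nrip1, a nuclear receptor corepressor, stood at 332, 148, 369, 353, 121, 572 and 119 CPM, 1.55-fold higher (1.31 to 1.83). Of 17 measured actin and adhesion genes only Myo1f, a myosin of leukocytes, was 2-fold apart (202 against 94.4 CPM, 2.14-fold higher, 1.58 to 2.86), beside 15.2% of all measured genes higher. Of 10 measured oxidative stress and iron genes 2 were at least 2-fold lower, Prdx5, a peroxiredoxin (87.2 against 225 CPM, 2.58-fold, 1.73 to 4.02), and Gclm, beside 5.22% of all measured genes. In the ribosome-poor cells the log2 ratio of Prdx5 was 1.95, from 7 and 3 UMIs. The lipid and cholesterol list had a median of 0.46 over 7 genes, but -0.24 over 5 genes in cells with at least 2.5% ribosomal UMIs. With median-of-ratios size factors it was -0.77. These medians are not over the same 7 genes, since the 100 CPM minimum applies after the scaling. Abcg1 and Nr1h2, both higher in the chronic non-recovered cells, stood there at 105 CPM before it.

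The highest ratios of single genes were those of Dlgap1 (143 against 0 CPM, at least 129-fold) and Qpct (202 against 5.16 CPM, 39.2-fold, 21.6 to 76.0), which went in the opposite direction between the non-helpless libraries. Zfp445, a zinc finger protein of genomic imprinting, had 129 against 9.22 CPM (14.0-fold), and Mid1, a ubiquitin ligase on chromosome X, 143 against 9.96 CPM (14.4-fold, 8.62 to 24.3). Srek1, a splicing regulator (167 against 17.3 CPM, 9.65-fold), Ncoa4, the receptor for ferritin turnover (171 against 23.6 CPM, 7.24-fold), Rapgef5, an exchange factor for Rap GTPases (509 against 83.0 CPM, 6.13-fold), Lnpep (223 against 41.3 CPM, 5.402-fold) and Atp13a1 (126 against 24.7 CPM, 5.08-fold) followed. All genes named here were at least 4-fold higher in cells with at least 2.5% ribosomal UMIs. Srek1, Hnrnpu, Rapgef5, Lnpep and Ncoa4 were also at least 2-fold higher in the chronic than in the acute non-helpless library, and Zfp445 had 84.5 against 16.3 CPM there, below the level needed to count it as measured.

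The lowest ratios included genes that divided the batches. A gene was counted as dividing them where each of the 3 sets of batches 1 and 2 was at least 2-fold above, or below, each of the 4 sets of batch 3. Of all measured genes 24 (1.08%) were lower and 1 (0.045%) higher in batch 3 by this rule, and by its construction each of them is also among the 116 lower or 339 higher genes. Gclm, a subunit of the enzyme that starts glutathione synthesis, had 625, 1674 and 1332 CPM in non-shocked batch 2, acute non-helpless and acute helpless cells and 74.8, 56.0, 122 and 50.4 CPM in the 4 sets of batch 3 (10.9-fold lower in chronic non-recovered than in acute helpless cells, 7.83 to 15.7). Pnp, a purine salvage enzyme (80.2 against 575 CPM, 7.17-fold), Tuba1a, an alpha tubulin (59.3 against 372 CPM, 6.28-fold), Rnaset2a (34.9 against 535 CPM, 15.3-fold), Wdr89 (13.9 against 193 CPM, 13.8-fold) and Tonsl (0 against 134 CPM, at least 12.8-fold) showed the same division. So did Ftl1-ps1 (48.0-fold), Eno1b (22.8-fold, from 3 UMIs in the chronic library, 7.78 to 111), Tpm3-rs7 and Psme2b (both 8.81-fold), which are copies of Ftl1, Eno1, Tpm3 and Psme2 and can share reads with them. The parent genes Ftl1 (1482 against 2185 CPM) and Eno1 (223 against 362 CPM) were 1.47-fold and 1.62-fold lower. The batches also differed in gene symbols. For Ftl1-ps1 the direction rests on their treatment: with older and newer symbols not summed its log2 ratio was 3.66 in place of -5.58. For the other genes of this paragraph the part of annotation beyond the summed symbols was not tested.

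The chronic and acute non-helpless libraries, which share no library with the helpless pair but span batch 3 and batch 2, were compared in the same way. Of 1910 measured genes, 19 (0.995%) were at least 2-fold higher and 48 (2.51%) lower in the chronic library. With the chronic non-helpless UMIs thinned to 286827, the total of the chronic non-recovered cells, these numbers were 32 and 53 of 1922 genes. Among 1796 genes measured in both pairs, 13 were higher in both, which is 7.22% of the 180 higher genes of the helpless pair and 72.2% of the 18 of the non-helpless pair. For lower genes 28 were shared, 24.8% of 113 and 68.3% of 41, among them Ddit4, Cd74, Gclm, Pnp and Tuba1a. Genes that divide the batches, 24 of them lower in batch 3, are by construction also 2-fold apart between the non-helpless libraries. Wherever measured in both pairs they count as shared, Gclm, Pnp and Tuba1a among them, so the overlap includes the batch division. Ddit4 and Cd74 did not divide the batches by that rule. Ddit4 was 2.38-fold lower (136 against 323 CPM) and Cd74 2.06-fold lower (93.0 against 191 CPM) in the chronic non-helpless library. Ccl4 (127 against 143 CPM), Egr1 (116 against 98.4 CPM) and Malat1 (12147 against 11715 CPM) differed by less than 1.2-fold there. Whether the 2 pairs differ in any of these genes was not tested.

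**Figure D5:**
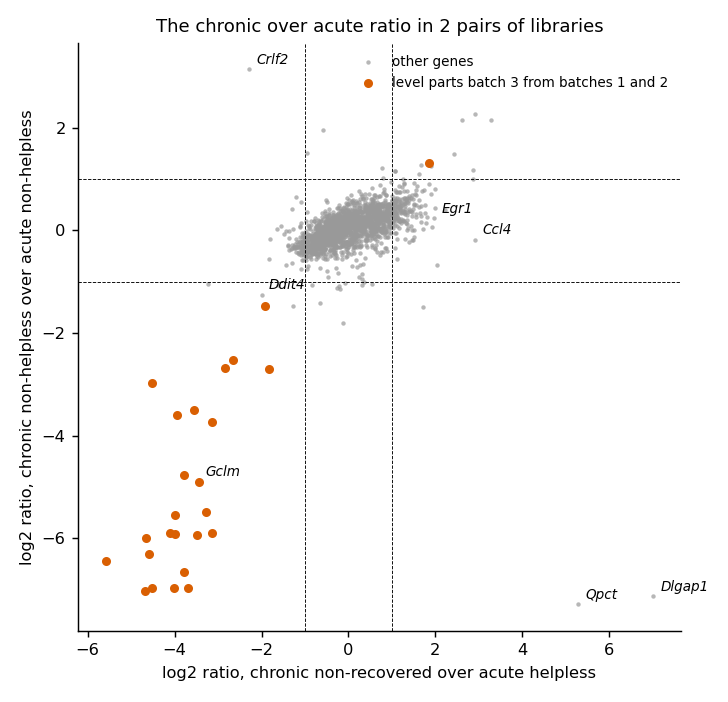
Log2 ratio of chronic non-recovered over acute helpless microglia (horizontal axis) and of chronic non-helpless over acute non-helpless microglia (vertical axis) for the 1796 genes measured in both pairs, with dashed lines at 2-fold. Orange points are genes whose level divides ("parts") batch 3 from batches 1 and 2; Dlgap1 and Qpct at the lower right and Crlf2 at the upper left moved past 2-fold in opposite directions.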

How the data were processed

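Raw UMI counts per gene and cell were used as deposited by the authors, with their batch, cluster and cell type labels. The submitters' processing notes name Cell Ranger 2.2.0, Seurat 2.3.4 and build mm10; cell filters, doublet removal and the typing method are not given in the sources used here, and no doublet caller was run. Libraries were read with a 10x 5' kit, per the labels' protocols. Counts of older and newer symbols of 1 gene were summed (259 pairs), and 310 symbols found under 1 annotation were left out. Barcodes with 20 or more UMIs in 5 neutrophil genes were left out. UMIs were summed per library and given as CPM. Genes that reached 100 CPM and 30 UMIs in whichever library had more were measured, and called at 2-fold. Counts below 3 were set to 3 in ratios, and a ratio against 0 is a lower bound. Intervals are exact Poisson for levels, exact conditional for ratios and Clopper-Pearson for shares. The ratio script was tested on simulated data.

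The text names the 12 highest and 12 lowest ratios and, of each of 29 lists, members 2-fold apart and the 2 most abundant; mitochondrial, ribosomal, receptor-rearranged, unnamed and sex-linked marker genes were left out of the ranking. Other genes named, AY036118 among them, the motifs, the exact list of 85 ribosomal symbols and the ranks among the 7 sets were chosen after values were seen. The members and lists were chosen with earlier results of these data known. Median depth per cell ran from 905 to 4579.5 UMIs over the 7 sets, and 3 counts correspond to 10.5 CPM in the chronic non-recovered and 1.11 CPM in the acute helpless microglia. Calculations used Python 3.11.15, numpy 2.4.6, scipy 1.17.1 and pandas 2.3.3. Sequences and spans are from RefSeq on GRCm38.p6. Some genes that the rule names are not reported here.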

Additional observations from a re-analysis of the deposited data

Results flagged for a closer look

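In 4 genes the chronic over acute difference passed 2-fold in opposite directions in the helpless and the non-helpless pair of libraries; each pair has 1 library a side, and whether the pairs differ was not tested. Dlgap1, a synaptic scaffold gene, had a log2 ratio of 7.01 between the helpless libraries (41 UMIs against 0, at least 129-fold higher) and -7.14 between the non-helpless ones. It stood at 292 CPM in non-shocked batch 2, 201 in acute non-helpless, 143 in chronic non-recovered and 23.7 in chronic recovered cells and had 0 UMIs in the other 3 sets. Qpct, which encodes glutaminyl cyclase, had 5.29 and -7.29, with 304, 445, 202 and 56.2 CPM in the same 4 sets and at most 5.16 CPM in the others. Both genes were thus highest in the same 4 sets, across batches. Crlf2, a subunit of the TSLP receptor, had -2.29 and 3.14, from 20.9 against 103 CPM and 105 against 11.9 CPM. AY036118 had 1.71 and -1.50, from 798 against 245 CPM and 666 against 1886 CPM.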

How the results depend on the processing

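No paired analysis was possible because each group has 1 library, and for the same reason no replicate could be left out. Against 339 higher and 116 lower genes and 10 lists with a median at least 0.5 from that of all measured genes, the counts that differed by over 1.5 times were these: 141 and 345 genes with median-of-ratios size factors, 227 lower with each cell weighted equally, 55 and 257 genes and 4 lists with cells thinned to 1000 UMIs, 96 and 55 genes and 2 lists in cells with at least 2.5% ribosomal UMIs, 90 and 53 genes and 2 lists in cluster 1 alone, 29 and 64 genes and 3 lists in cells under 2.5% (chosen after seeing the data), 201 lower at 50 CPM, 120 and 62 at 200 CPM, 682 and 408 at 1.5-fold, and 66 and 32 at 3-fold. For the non-helpless pair, 19 and 48 became 36 and 77 at 50 CPM, and 32 were higher after thinning (chosen after seeing the data). The cause of these shifts was not tested, apart from the level and fold limits, which by construction admit more or fewer genes. Of the named genes 2-fold apart and the lists with a median of at least 0.5 in size, these reversed, as log2 ratios. Ftl1-ps1 was at 3.66 where older and newer symbols were not summed. In cells under 2.5%, which hold few UMIs of each, the values were -1.05 for Ccl4, -0.50 for Ccl3, -0.27 for Ier2, 0.31 for Cox6c, 1.95 for Prdx5, -1.01 for Per1 and 0.50 for H2afz, and the list medians 0.35 for translation factors and -0.066 for nuclear RNA and splicing. Of lists with smaller medians, lipid handling turned from 0.46 (7 genes) to -0.24 (5 genes) in cells with at least 2.5%. Mitochondrially encoded genes turned there from 0.059 to -0.28, among others whose medians were near 0. The median of all measured genes went from 0.094 to -0.12 in the same cells. Depth limits low genes: 3 counts equal 10.5 CPM in the chronic non-recovered cells.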
